A study of Mus musculus with 12 samples.

Results

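The cytosolic ribosomal protein genes are the protein-coding genes of the mouse whose symbols start with *Rpl* or *Rps* followed by a digit, together with *Rplp0*, *Rplp1*, *Rplp2* and *Rpsa*. The ribosomal S6 kinases and the named pseudogenes share the prefix and were left out. The rule gave 86 genes of the 49585 in the files. They comprised 31 genes of the small subunit, 43 of the large subunit, 3 of the P stalk, 7 paralogs (*Rpl3l*, *Rpl10l*, *Rpl22l1*, *Rpl39l*, *Rps27l*, *Rpl36al* and *Rps27rt*), and 2 genes that carry the name but encode associated factors (*Rps19bp1* and *Rpl7l1*). They lie on 19 chromosomes. The rule goes by name and uses no measured value, but earlier results of these data were known when the genes and the other lists below were chosen.

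Each ribosome holds 1 copy of most of these proteins around its ribosomal RNA, and the proteins of the P stalk recruit the elongation factors. Ribosomal protein mRNAs belong as a rule to the terminal oligopyrimidine (TOP) class. They begin with a run of C and U, and the growth-regulating kinase mTOR controls their translation through the binding protein LARP1. Their mRNA levels usually move together, since every growing cell makes the proteins in matched amounts.

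RNA-seq was performed on the adrenal cortex of 12 male mice, 1 library per mouse, in 3 groups of 4. Low-fat diet (LFD) mice, which the labels call Normal Diet, were fed a diet with 10% of its kcal from fat for 20 weeks from the age of 6 weeks. High-fat diet (HFD) mice were fed 60% of kcal from fat for the same time. The IPE mice received icosapent ethyl, an ethyl ester of eicosapentaenoic acid, in the last 10 of their 20 weeks on the HFD. The labels give the genotype Fads2-/- for all 12 mice, whereas the methods of the study describe wild-type C57BL/6J mice for this experiment. *Fads2* was at 451.8 to 2182 CPM, counts scaled to a common library size, in the 12 libraries. The methods of the study describe removal of the medulla under a microscope for cell sorting, and give no procedure for the sequenced cortex. Markers of chromaffin cells, the catecholamine-producing cells of the medulla, were detected in every mouse, and their values stand beside the results. The libraries held between 34785979 and 67295963 counts, and mitochondrially encoded genes took 1.84% to 3.23% of them. Levels are CPM scaled by the trimmed mean of M-values (TMM) over the 12 mice.

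What the genes share beyond their names can be seen at their start sites. RefSeq promoter windows (GRCm38.p6, 250 bases before to 50 after the start) matched 66 of the 86 genes, with 78 windows. The letters CCGGAAG, a core of the sites of ETS factors, occurred on either strand in 27 of these 78 windows (34.6%) and in 8.86% of all 32851 windows. The pyrimidine run CTTTCC occurred in 51.3% against 26.6%, and the TATA box letters TATAAA in 8.97% against 13.6%. A match describes letters, not a bound site. Among 53 tested genes with a single window, 10 had CTTTCC on the strand of the gene between 60 bases before and 20 bases after the start. Of these, the 3 genes with the largest difference between HFD and LFD mice and the 3 with the smallest (genes on the chromosome of *Rps14* were not considered) are shown to set the start sites of both ends of the list side by side, with CTTTCC in capitals and position 61 the annotated start:
Rps27rt (chr9:114982720-114982799, minus strand): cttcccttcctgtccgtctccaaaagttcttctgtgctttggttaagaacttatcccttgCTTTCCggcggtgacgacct
Rps27 (chr3:90213629-90213708, minus strand): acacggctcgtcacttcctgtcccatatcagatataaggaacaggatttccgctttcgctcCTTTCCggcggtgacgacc
Rpl38 (chr11:114668520-114668599, plus strand): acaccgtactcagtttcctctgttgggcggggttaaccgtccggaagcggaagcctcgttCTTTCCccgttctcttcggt
Rpl13a (chr7:45128726-45128805, minus strand): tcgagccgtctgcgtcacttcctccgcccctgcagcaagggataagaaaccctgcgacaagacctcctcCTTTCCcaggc
Rpl15 (chr14:18270967-18271046, minus strand): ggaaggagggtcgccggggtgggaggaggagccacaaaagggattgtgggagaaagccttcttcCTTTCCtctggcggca
Rpl4 (chr9:64173327-64173406, plus strand): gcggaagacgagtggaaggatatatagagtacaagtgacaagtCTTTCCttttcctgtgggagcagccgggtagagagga

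The first 3 sequences belong to *Rps27rt*, *Rps27* and *Rpl38*, and the last 3 to *Rpl13a*, *Rpl15* and *Rpl4*. All 6 were picked for holding CTTTCC, so its presence says nothing about the difference between the groups. *Rps27rt* is a retrogene of *Rps27*, and both windows go on with the same bases after CTTTCC. Of the 86 annotated transcripts taken here, 1 per gene, 11.6% began with C followed by 4 or more pyrimidines, against 2.23% of all 21734 protein-coding genes (GENCODE M21). Whether the annotated starts are the bases at which these mRNAs begin was not tested. The genes also serve as hosts, because 30 of the 86 held a small nucleolar RNA (snoRNA) gene on the same strand, 58 snoRNA genes in all. *Rpl4* held 5 of them.

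Ribosomal protein mRNAs were abundant. In LFD mice 2, 5, 6 and 7 the 86 genes summed to 50374, 44057, 54723 and 51995 CPM. In HFD mice 1 to 4 they summed to 39602, 39430, 45650 and 46538 CPM, and in IPE mice 1 to 4 to 42024, 42856, 41439 and 46804 CPM. LFD mice were high and the other groups low, but LFD mouse 5 lay below HFD mice 3 and 4 and IPE mouse 4. The group means were 50288 ± 4524 CPM in LFD, 42805 ± 3816 in HFD and 43281 ± 2420 in IPE mice (SD, n = 4 each). As a share of all counts in the library, without scaling, the genes took 4.63% to 5.72% in LFD, 3.95% to 4.25% in HFD and 4.07% to 4.68% in IPE mice. On that scale the LFD and HFD groups did not overlap.

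**Figure D1:**
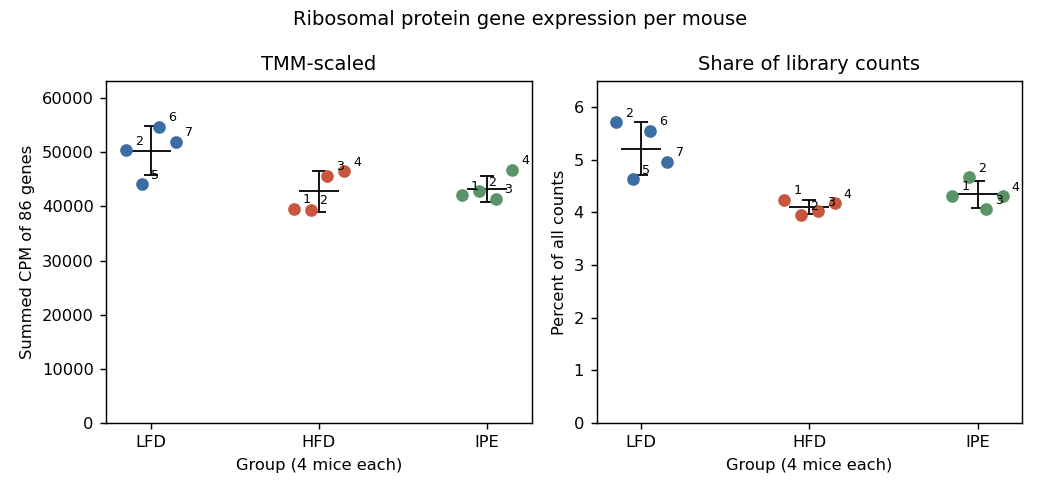
Level of the 86 ribosomal protein genes in each mouse (points, numbered by replicate), as summed TMM-scaled CPM (left) and as percent of all library counts (right), with the mean and SD of the 4 mice of each group (line and bars). The left panel shows the groups overlapping through LFD mouse 5 at 44057 CPM, whereas on the right the LFD mice, from 4.63%, lie above the HFD mice, up to 4.25%.

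Per kilobase of the annotated transcript, the mean level over the 12 mice was highest for *Rps14* (3723 CPM per kb), *Rplp1* (2204), *Rps27* (1648), *Rps15* (1406) and *Rps18* (1309). Among genes that passed the count filter it was lowest for *Rps27rt* (8.08 CPM per kb), *Rps19bp1* (22.4), *Rpl13a* (26), *Rpl7l1* (40.2) and *Rps15a* (82.4). These levels depend on the transcript chosen, which for *Rps15a* was 5179 bases long. Reads were counted only where they mapped uniquely and to 1 gene. For *Rpl13a* 35.4% of the exon bases, and for *Rpl24* 47%, are shared with other annotated genes on the same strand, among them *Gm45713* and *Gm28037*, both at 0 counts in every mouse. *Rpl24*, a core protein of the large subunit, had at most 4 counts in any mouse, and its level cannot be read from these files. The other genes that did not pass the filter were *Rpl3l*, a paralog of striated muscle, with 0 to 12 counts, and the paralogs *Rpl39l*, with 0 to 14, and *Rpl10l*, with 0. Thus 82 of the 86 genes were tested.

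The comparison of HFD with LFD mice asks how the obesogenic diet changed gene expression in the adrenal cortex. No ribosomal protein gene passed the test, yet nearly all were lower in HFD mice by a similar amount. Of 82 genes, 80 were lower, with a median log2 fold change of -0.26, whereas the median over all 15909 genes tested was -0.01 and 51.8% of them were lower. With edgeR's quasi-likelihood test, 0 of 82 passed an adjusted p of 0.05, and the lowest adjusted p was 0.0719 for *Rps21*. Among all genes, 1.45% passed. At an unadjusted p of 0.05, 54 of the 82 were lower, against 12.5% of all genes, and none was higher. In 10 of the 82 all HFD mice lay below all LFD mice, as in 5.82% of all genes. DESeq2 called 4 of the genes lower, *Rps12*, *Rps21*, *Rpl37a* and *Rps27rt*, and 6.22% of its genes.

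**Figure D2:**
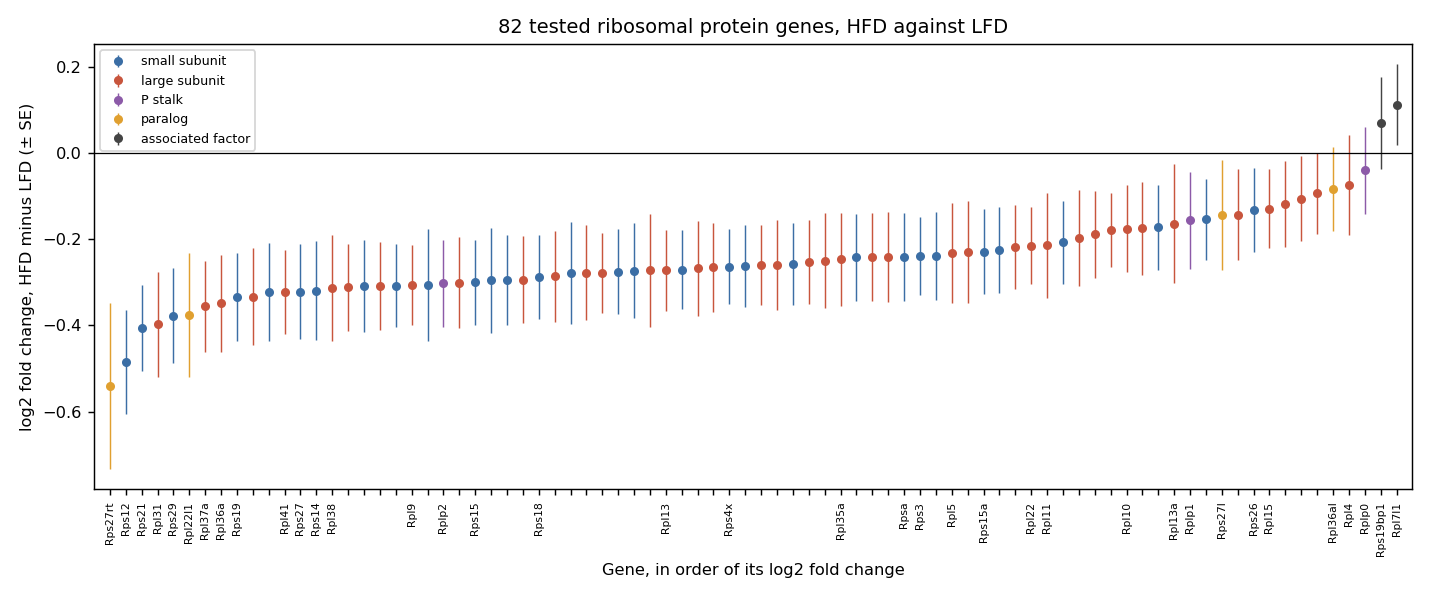
Log2 fold change of HFD against LFD mice for each of the 82 tested genes (points) with its SE (bars), ordered by size and coloured by role, with the genes described in the text labelled. The points run from -0.54 (*Rps27rt*) to 0.11 (*Rpl7l1*), and 80 of 82 lie below 0.

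In the small subunit all 31 genes were lower, with a median of -0.28 and 26 at an unadjusted p below 0.05. *Rps12*, a protein of the head of the small subunit (chr10:23785183-23787275, minus strand), was at 725, 547.7, 749.7 and 607.8 CPM in LFD mice, at 452.9, 438.7, 511.3 and 490.3 CPM in HFD mice, and at 487.4, 515.5, 454.6 and 508.5 CPM in IPE mice. All 8 values of the HFD and IPE mice lay below the lowest LFD value. The log2 fold change of HFD against LFD was -0.49 ± 0.12 (SE), with an edgeR adjusted p of 0.0722. It has more named pseudogenes than any other gene of the set, 23, and 83.6% of the 50-base windows of its transcript also occur in another annotated transcript. Such sharing was common in the set, with a median of 51.5% and a highest value of 98.6% over the 82 tested genes.

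*Rps21* (chr2:180257377-180258445, plus strand) was at 461.8, 402.7, 508.5 and 449.5 CPM in LFD mice, at 341.1, 305.5, 360.1 and 378.1 in HFD mice, and at 346.6, 367.4, 336.8 and 369.3 in IPE mice. Its log2 fold change of HFD against LFD was -0.41 ± 0.10 (edgeR adjusted p = 0.0719). Again every HFD and IPE mouse lay below every LFD mouse. *Rps29*, a small zinc-binding protein (chr12:69157722-69159186, minus strand), ranged from 238.1 to 324.7 CPM among LFD mice and from 203.6 to 236.8 among HFD mice (log2 fold change -0.38 ± 0.11). *Rps19*, *Rps3* and *Rps4x* were the other small subunit genes whose HFD and LFD mice did not overlap. Mutations in the human counterpart of *Rps19* are a known cause of Diamond-Blackfan anemia. *Rpsa*, which also serves as a laminin receptor, had a mean of 897.9 ± 87.3 CPM on the HFD and of 1054 ± 93.9 CPM on the LFD (SD, n = 4 each), which differed by -0.24 ± 0.10 on the log2 scale. *Rps26* showed the smallest difference of this subunit, -0.13 ± 0.10.

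In the large subunit all 42 tested genes were lower, with a median of -0.25 and 25 at an unadjusted p below 0.05. *Rpl31*, a protein near the exit of the peptide tunnel (chr1:39367842-39371911, plus strand), was at 406.1, 292.6, 402.7 and 345.7 CPM in LFD mice and at 257.7, 259, 290.1 and 299.8 CPM in HFD mice. The log2 fold change was -0.40 ± 0.12, and the groups overlapped through LFD mouse 5 and HFD mouse 4. *Rpl37a* (chr1:72711290-72713813, plus strand) ranged from 340.4 to 450.9 CPM among LFD mice and from 298.2 to 335 among HFD mice, so that the groups did not overlap (log2 fold change -0.36 ± 0.10). *Rpl9* and *Rpl41* were the other 2 large subunit genes without overlap. At the other end, *Rpl4* (chr9:64173375-64178666, plus strand) was at 1112, 1179, 1402 and 1401 CPM in LFD mice and at 1072, 1109, 1365 and 1317 CPM in HFD mice. The log2 fold change was -0.07 ± 0.12. These values interleave.

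The 3 genes of the P stalk spread over much of that range. *Rplp2* had a log2 fold change of HFD against LFD of -0.30 ± 0.10 and *Rplp1* of -0.16 ± 0.11. *Rplp0*, which anchors the other stalk proteins and is a common reference gene in quantitative PCR (chr5:115559467-115563727, plus strand), was at 1546, 1603, 1757 and 1849 CPM in LFD mice and at 1465, 1557, 1730 and 1854 CPM in HFD mice. Its log2 fold change was -0.04 ± 0.10, the smallest of the genes that encode ribosomal proteins, and it turned positive, at 0.01, without HFD mouse 1.

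The paralogs stood beside the proteins they resemble as follows. *Rps27rt* ranged from 3.05 to 4.28 CPM among LFD mice and from 2.09 to 2.92 among HFD mice. Its log2 fold change of -0.54 ± 0.19 was the largest of the set. *Rps27* had a mean of 568.4 CPM over the 12 mice and differed by -0.32 ± 0.11. Of the 50-base windows of the *Rps27rt* transcript, 91.1% occur in other transcripts, most often in that of *Rps27*, so reads of the pair cannot be fully told apart. *Rps27l*, a p53-responsive paralog, differed by -0.14 ± 0.13. *Rpl22l1* had a mean of 88.8 ± 16 CPM on the LFD and of 69 ± 7.58 CPM on the HFD (SD, n = 4 each). This was a log2 fold change of -0.38 ± 0.14, and its partner *Rpl22* differed by -0.22 ± 0.09. *Rpl36al* differed by -0.08 ± 0.10 and *Rpl36a* by -0.35 ± 0.11. None of these paralogs was compared with its partner by a test.

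The 2 genes that were higher in HFD mice were the 2 that encode no ribosomal protein. *Rpl7l1*, a nucleolar factor of large subunit assembly, had a mean of 109.2 ± 13 CPM on the HFD and of 100.4 ± 6.49 CPM on the LFD (SD, n = 4 each), a difference of 0.11 ± 0.09 (log2). *Rps19bp1*, which binds RPS19 and the deacetylase SIRT1, had means of 18.6 ± 1.43 and 17.6 ± 1.16 CPM, a difference of 0.07 ± 0.11 (log2). Neither passed the test, and with library totals in place of TMM the value of *Rps19bp1* was -0.04.

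On the TMM scale, mice of 1 group differed from each other in the whole set at once. HFD mice 3 and 4 were above their group mean in 81 and 82 of the 82 genes, and HFD mice 1 and 2 in 1 and 0 genes. LFD mouse 5 was above its group mean in 0 genes and LFD mouse 6 in 79, and IPE mouse 4 was above in 80. The order within the HFD and IPE groups depended on the scaling. As a share of all counts, HFD mice 1 to 4 were at 4.245%, 3.95%, 4.028% and 4.18%. IPE mice 1 to 4 were at 4.32%, 4.676%, 4.066% and 4.306%. LFD mouse 5 was the lowest of its group on that scale too, at 4.633%. Over all 12 mice on the TMM scale, LFD mouse 6 had the highest value for 58 genes, and HFD mice 2 and 1 had the lowest for 42 and 26. The 82 genes therefore do not count as separate observations of the diet. Without LFD mouse 5, the groups did not overlap in 62 of the 82 genes in place of 10, against 8.47% of all genes. With library totals in place of TMM they did not overlap in 75, against 8.86% of all genes. Library totals moved the median over all genes from -0.01 to -0.11 and that of the ribosomal protein genes from -0.26 to -0.36, so that the distance between the 2 medians was 0.25 on both scales. Leaving out LFD mouse 6 or HFD mouse 2 left 17 in place of 54 genes lower at an unadjusted p of 0.05, against 8.21% and 8.65% of all genes in those fits. Without LFD mouse 2, HFD mouse 1 or LFD mouse 7 the count was 31, 31 and 33, against 9.13%, 15% and 13.2% of all genes. Without HFD mouse 3, HFD mouse 4 or LFD mouse 5 it was 44, 60 and 63, against 9.8%, 8.43% and 10.4%. With library totals it was 79, against 16.4%.

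**Figure D3:**
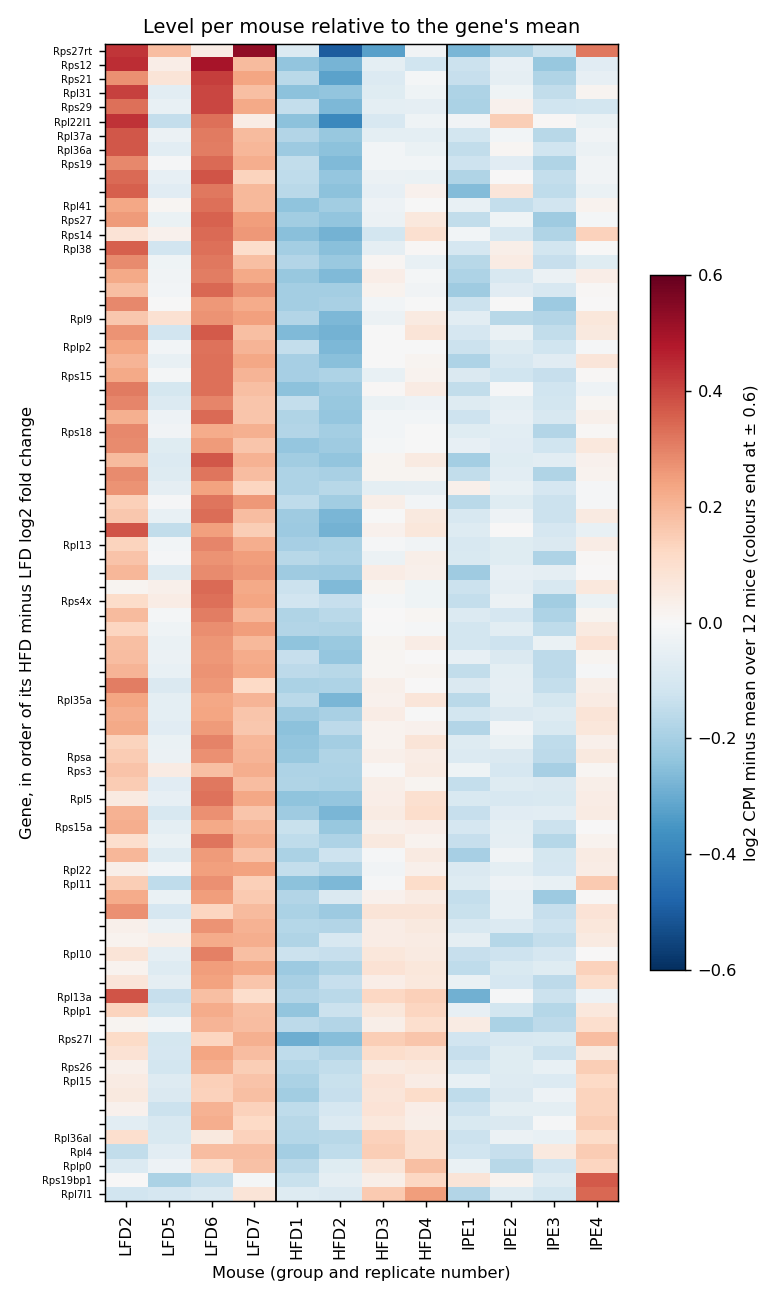
Log2 CPM of the 82 tested genes (rows, ordered by their HFD minus LFD log2 fold change, with the genes described in the text labelled) in the 12 mice (columns), relative to the mean of the gene over all mice, with red for higher and blue for lower. Whole columns share a colour, red in LFD mice 2, 6 and 7 and blue in HFD mice 1 and 2, whereas LFD mouse 5 and HFD mice 3 and 4 lie near 0.

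The labelled tissue was checked with marker lists, and the levels of other cells moved with the comparison. The 10 genes of cortical steroidogenesis were all higher on the HFD (median 0.50 on the log2 scale), and 0 passed the test. The 12 chromaffin markers were all lower, with a median of -1.24, and 0 passed. None of the 12 was at 0. DESeq2 called 2 of the 10 steroidogenic genes higher and 5 of the 12 chromaffin markers lower. Among the 15909 genes tested with edgeR it called 965 higher and 987 lower. The chromaffin markers summed to 19049, 12371, 22196 and 6297 CPM in LFD mice 2, 5, 6 and 7, to 9845, 3045, 8391 and 3128 CPM in HFD mice 1 to 4, and to 9091, 10516, 10754 and 5436 CPM in IPE mice 1 to 4. LFD mouse 6 had the highest chromaffin and the highest summed ribosomal protein level of the 12 mice, and HFD mouse 2 the lowest of both. LFD mouse 7 and HFD mouse 4 were low in chromaffin markers for their groups and above their group means in ribosomal protein mRNA. These orders hold for TMM-scaled levels. As a share of all counts, LFD mouse 2 was highest in ribosomal protein mRNA (5.716%), above LFD mouse 6 (5.553%). LFD mouse 7 (4.962%) was then below its group mean of 5.216%. HFD mouse 4 (0.281%), in place of HFD mouse 2 (0.305%), was then lowest in chromaffin markers. With the mean chromaffin level as a covariate in the fit, which also spends a degree of freedom, the median of the 82 genes was -0.22. At an unadjusted p of 0.05, 2 genes in place of 54 were then lower, against 4.45% of all genes in that fit. Of the macrophage markers, 8 of 10 were lower, and *Cd68*, *Lyz2*, *C1qa* and *C1qc* passed the test, although with 1 mouse left out they passed only without HFD mouse 1 or LFD mouse 2. The 10 markers summed to 737 to 1108 CPM in LFD and 521.3 to 629.5 CPM in HFD mice. All 5 erythroid markers were lower (median -0.59), and 0 passed the test. They summed to 1272, 373, 1313 and 938.9 CPM in LFD mice 2, 5, 6 and 7 and to 536.3 to 734.8 CPM in HFD mice. LFD mouse 5 was the lowest of its group in erythroid markers as in ribosomal protein mRNA. HFD mouse 4 (536.3 CPM) and IPE mouse 4 (626.6 CPM) were also the lowest of their groups in erythroid markers. Both, however, had the highest summed ribosomal protein CPM of their groups. In bulk tissue, fewer cells of a type and less RNA per cell cannot be told apart, and the part of these cell types in the result was not tested beyond the covariate.

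Transcript length also moved with the comparison. Of the 82 genes, 55 had an annotated transcript under 1 kb. Their median log2 fold change of HFD against LFD was -0.27, and that of 767 other protein-coding genes under 1 kb was -0.13, with 71.3% of them lower. Between 1 and 2 kb the medians were -0.25 for 21 ribosomal protein genes and -0.05 for 2936 others. The medians of the other genes were -0.0029 between 2 and 4 kb and 0.09 above 4 kb. Within the set, the log2 fold change and the length had a Spearman rho of 0.337 across 82 genes, which are not independent of each other. Most short genes were thus lower in HFD mice, and the median of the ribosomal protein genes lay below that of other genes of their length. This difference was not tested, nor was the part of transcript length in the result.

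**Figure D4:**
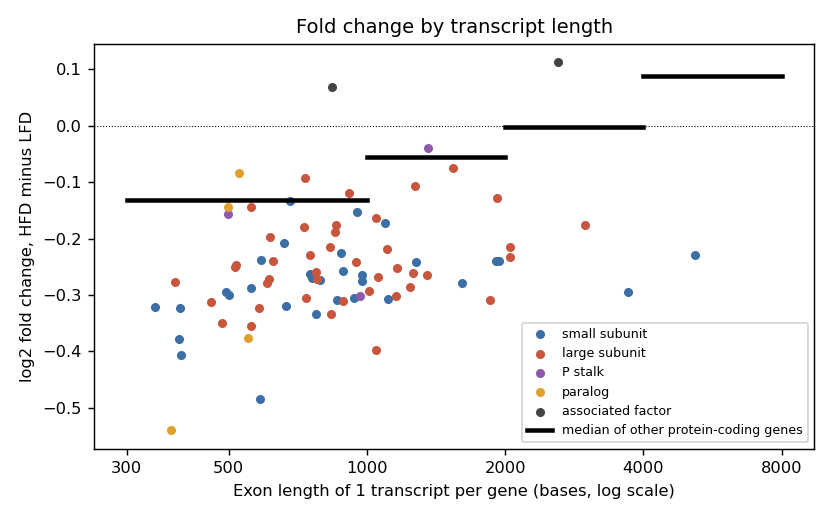
Log2 fold change of HFD against LFD mice by exon length of 1 transcript per gene (log scale) for the 82 tested genes (points, coloured by role), with the median of the other protein-coding genes in 4 length classes (black lines, -0.13 to 0.09). Most points lie below the line of their class.

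Some genes of the ribosome carry other names. *Fau* encodes a fusion of a ubiquitin-like protein with RPS30, and *Rack1* a scaffold on the small subunit. Both were lower in HFD mice, with log2 fold changes of -0.34 ± 0.09 and -0.11 ± 0.08, and neither passed the test with edgeR (adjusted p = 0.0871 for *Fau*). DESeq2 called *Fau* (adjusted p = 0.044), and its HFD and LFD mice did not overlap. On the LFD *Fau* had a mean of 392.4 CPM and *Rack1* of 1022 CPM. Named pseudogenes of ribosomal proteins, of which 79 of 280 were tested, were lower in 68 cases, with a median of -0.34 and 0 calls. Whether these reads come from the parent genes was not tested.

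Other TOP mRNAs of the translation machinery were more mixed. Of 20, 14 were lower and 6 higher, with a median of -0.10 and 0 calls, and with library totals 17 were lower (median -0.21). The elongation factor subunit *Eef1g* was lowest, at -0.21 ± 0.09. *Eef1a1*, the most abundant of them with a mean of 9600 CPM on the LFD, was at 0.01 ± 0.09, and the poly(A)-binding protein gene *Pabpc1* was at 0.23 ± 0.08. Of 7 snoRNA host genes listed as TOP, whose starts were not examined, 6 were lower, with a median of -0.33 and 0 calls. Among them *Gas5* had a mean of 111.1 CPM on the HFD and of 138.4 CPM on the LFD. *Snhg8* was lowest at -0.35 ± 0.12, and *Snhg1* was the 1 above 0 at 0.40 ± 0.33.

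Factors that build ribosomes lay on the other side. Of 40 genes of ribosome biogenesis, 36 were higher on the HFD (median 0.26 on the log2 scale), and 1 passed the test. This was *Heatr1*, a factor of ribosomal RNA transcription and processing, which rose from 27.4 to 50.4 CPM (log2 fold change 0.87 ± 0.17, edgeR adjusted p = 0.0497). *Rrp12* had means of 27.5 CPM on the HFD and 14.4 CPM on the LFD (0.92 ± 0.21, edgeR adjusted p = 0.0598), and *Nop53* was lowest of the list at -0.33 ± 0.32. Of 17 regulators of growth and translation, 14 were higher, with a median of 0.36, and 1 passed. This was *Rps6kb1*, the S6 kinase that phosphorylates RPS6, which rose from 31.7 to 49 CPM (0.62 ± 0.10, edgeR adjusted p = 0.038). *Myc* had means of 58.8 CPM on the HFD and 29.5 CPM on the LFD (0.99 ± 0.27, edgeR adjusted p = 0.0841), *Larp1* differed by 0.46 ± 0.10 (adjusted p = 0.0553), and *Maf1*, a repressor of RNA polymerase III, was lowest at -0.22 ± 0.17. With library totals 30 of the 40 biogenesis genes (median 0.16) and 13 of the 17 regulators (median 0.28) were higher, and *Heatr1* and *Rps6kb1* no longer passed (edgeR adjusted p = 0.0545 for both). With 1 mouse left out, both passed only in the fit without HFD mouse 1, and their adjusted p reached 0.148 and 0.133 in the others. DESeq2 called both, and in all 8 of the 40 biogenesis genes and 6 of the 17 regulators, each higher, among them *Rrp12* (adjusted p = 0.00283), *Myc* (0.0122) and *Larp1* (0.00737). Among the 15909 genes tested with edgeR, DESeq2 called 965 higher. No test compared these lists with the ribosomal protein genes, and the lists were not matched for transcript length. In the biogenesis list the annotated transcript of *Mrto4* has 930 bases and that of *Rrp12* 4340, whereas 55 of the 82 ribosomal protein genes were under 1 kb. The part of length in the contrast was not tested.

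**Figure D5:**
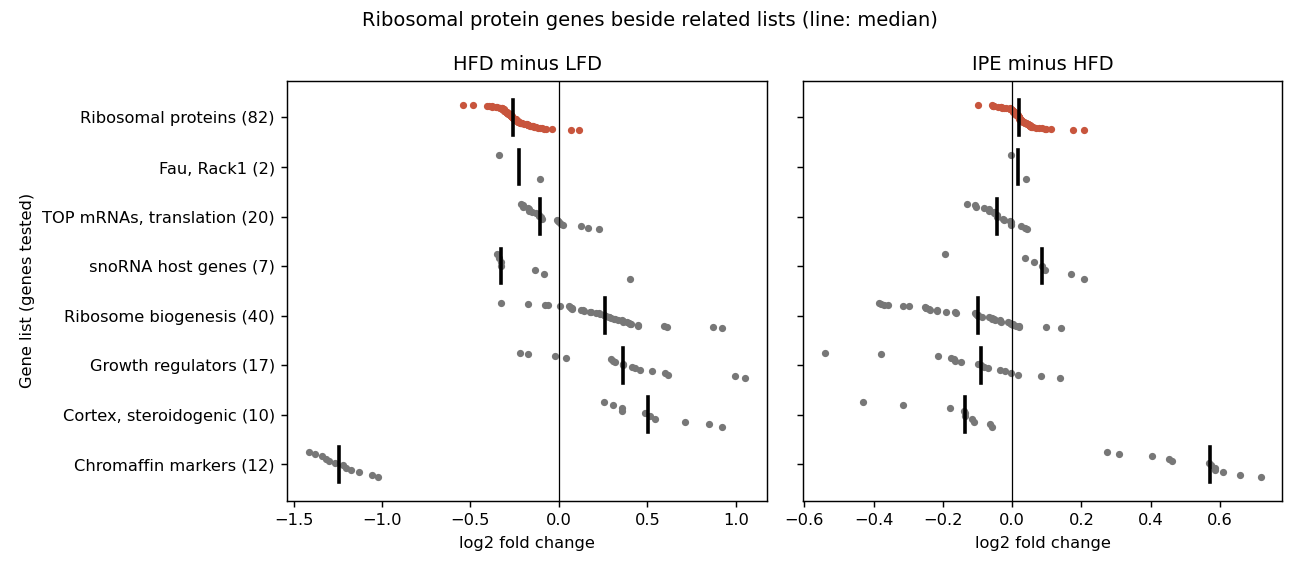
Log2 fold change of single genes (points) and their median (black line) in the ribosomal protein genes (red) and 7 related lists (grey), for HFD against LFD (left) and IPE against HFD mice (right), with the number of genes tested in brackets. On the left the ribosomal protein genes centre on -0.26 and ribosome biogenesis on 0.26, and on the right the medians are 0.02 and -0.10.

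The comparison of IPE with HFD mice asks whether icosapent ethyl altered the expression seen on the HFD. No difference was detected in the ribosomal protein genes. Of 82 genes, 64 were higher in IPE mice, and the median log2 fold change was 0.02 (all genes 0.004). With edgeR 0 of 82 passed the adjusted p, as did 0% of all genes, and 0 had an unadjusted p below 0.05, against 1.39% of all genes. In 0 of 82 the groups did not overlap, against 1.14% of all genes. DESeq2 called 0 of them. The single log2 fold changes ran from -0.10 ± 0.12 (*Rpl13a*) to 0.21 ± 0.09 (*Rpl22l1*, unadjusted p = 0.056, edgeR). *Rpl22l1* was at 66, 59.9, 73.3 and 76.8 CPM in HFD mice and at 77, 86.6, 78.6 and 76.2 CPM in IPE mice, so that HFD mouse 4 lay above IPE mouse 4. The next largest were *Rps27rt* (0.17 ± 0.20), *Rps19bp1* (0.11 ± 0.13), *Rpl11* (0.10 ± 0.11) and *Rps14* (0.10 ± 0.11). Below 0 they were *Rpl7l1*, *Rplp0* and *Rpl10*, at -0.05 to -0.06 and all above 0 with library totals. The count of 64 genes became 30, 21 and 27 without HFD mouse 1, HFD mouse 2 and IPE mouse 4. Ribosome biogenesis genes were lower in IPE than in HFD mice in 33 of 40 cases, with a median of -0.10 and 0 calls, and in 24 of 40 with library totals. The chromaffin markers were higher in 12 of 12, with a median of 0.57 and 0 calls.

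The comparison of IPE with LFD mice shares its LFD mice with that of HFD with LFD mice, so the 2 sets of values are given side by side and not as separate evidence. Again 80 of 82 genes were lower in IPE mice, and the median log2 fold change was -0.22 (all genes -0.0037), beside -0.26 for HFD mice. With edgeR 0 of 82 passed the adjusted p (lowest 0.202), as did 0% of all genes. At an unadjusted p of 0.05, 44 were lower, against 6.67% of all genes. In 7 the groups did not overlap, against 3.69% of all genes. DESeq2 called *Rps21* alone, and 1.29% of its genes were called lower. *Rps12* differed by -0.42 ± 0.11 beside -0.49 for HFD mice, *Rps21* by -0.36 ± 0.09 beside -0.41, *Rps29* by -0.33 beside -0.38, and *Rpl31* by -0.33 beside -0.40. *Rplp0* differed by -0.09 ± 0.10. The 2 associated factors were again the 2 genes above 0, *Rps19bp1* at 0.19 ± 0.13 and *Rpl7l1* at 0.06 ± 0.12. *Rpl7l1* was below 0 with the chromaffin covariate (-0.07) and without IPE mouse 4 (-0.07). The 12 chromaffin markers were all lower in IPE than in LFD mice, with a median of -0.71 and 0 calls. With the chromaffin covariate 34 genes in place of 44 were lower at an unadjusted p of 0.05, against 5.83% of all genes in that fit. Without IPE mouse 3, LFD mouse 6 or IPE mouse 1, 13, 16 and 18 genes in place of 44 were lower at an unadjusted p of 0.05, against 5.82%, 4.82% and 4.86% of all genes in those fits. Without LFD mouse 7, LFD mouse 2 or IPE mouse 2, 22, 25 and 26 were, against 8.49%, 5.7% and 7.26%. Without IPE mouse 4 or LFD mouse 5, 54 and 65 were, against 5.22% and 5.99%. With library totals the count was 64, against 7.58%.

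The mean of the LFD mice was the highest of the 3 groups for 80 of the 82 genes, and that of the HFD mice the lowest for 63. For 63 genes the IPE mean lay between the other two. For none of the 82 genes was a difference between HFD and IPE mice detected at an unadjusted p of 0.05.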

How the data were processed

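Adrenal cortex RNA was sequenced from 12 mice, 4 per group. What the authors deposited are raw counts of reads, 1 value per gene and mouse, made from strand-specific total RNA libraries with cutadapt, STAR on GRCm38 and HTSeq 0.6.1p1 (reverse strand, minimum mapping quality 20) on GENCODE M12, so that reads of multiple or overlapping genes were left out. Symbols and lengths (1 transcript per gene, by APPRIS tag, support level and length) came from GENCODE M21, which named 49326 of 49585 genes. The quasi-likelihood test of edgeR 4.0.16 (R 4.3.3) was run on the counts of the 8 mice of each comparison, after filterByExpr at 10 counts and TMM scaling, with a robust fit and Benjamini-Hochberg adjustment over all genes tested at 0.05. SEs are the log2 fold change over the root of the F statistic. No 2 libraries were copies (66 pairs, lowest chi-square per degree of freedom 26.4).

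The genes and lists were chosen with earlier results of these data known. Named genes were the 5 largest rises and falls per comparison at 1 CPM or more, the extremes of level per kb, the P stalk, *Rpsa*, paralogs with their partners, *Fau* and *Rack1*, called genes of the other lists, and the extremes of these. Some genes that this rule names are not reported here. Further genes (*Rps3*, *Rps4x*, *Rps19*, *Rps26*, *Rpl4*, *Rpl9*, *Rpl37a*, *Rpl41* and single list genes) were named after their values were seen. The other lists comprised other TOP mRNAs (most of them of translation), snoRNA hosts, biogenesis, growth regulators and cell type markers. In endothelial markers 8 of 10 were lower in HFD than in LFD mice, in fibroblast and capsule markers 9 of 10, in lymphocyte markers 5 of 10, in erythroid markers 5 of 5 and in adipocyte markers 2 of 10, where *Lipe* and *Plin4* were called higher (in 2 and 1 of 8 fits with 1 mouse left out). Promoters were RefSeq windows, searched on both strands.

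HFD and IPE mice share the numbers 1 to 4. Over all genes, the difference of a mouse from its group mean correlated with that of the mouse of the same number at 0.339, 0.162, 0.405 and 0.795, so the number was used as a block in an alternative. The labels give no link between these mice, and some mice of different numbers correlated as much or more (HFD 1 with IPE 2 at 0.705, HFD 2 with IPE 1 at 0.616, HFD 3 with IPE 4 at 0.491). The other alternatives were DESeq2 1.42.0, its size factors, library totals, TMM without the ribosomal protein genes, 2 count filters, all 12 mice in 1 fit, a chromaffin covariate, the ribosomal proteins alone and leaving out each mouse. The count at an unadjusted p of 0.05 under these alternatives was added after the data were seen. The edgeR and DESeq2 fits were tested on simulated data.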

Additional observations from a re-analysis of the deposited data

Results flagged for a closer look

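Of 249 groups of 4 values (82 genes and their summed level in 3 groups), 7 held a mouse far from the other 3 (2.81%), where chance gives about 1 in 20. In the IPE mice this was mouse 4 in all cases, with *Rpl13* at 745 CPM (next 687), *Rpl5* at 606 (next 552), *Rps27l* at 113 (next 93.7) and *Rpl7l1* at 132 (next 98.6). In the LFD mice, mouse 5 was lowest with *Rps15a* at 407 CPM (next 487) and *Rpl35a* at 420 (next 503), and mouse 7 was highest with *Rpl7l1* at 110 CPM (next 98.2).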

How the results depend on the processing

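The count of ribosomal protein genes called was 0 in all 3 comparisons in the main edgeR fit. With DESeq2 it was 4 in HFD versus LFD and 1 in IPE versus LFD mice, against 6.22% and 1.29% of its genes called lower. In HFD versus LFD mice it was 1 with library totals, where 84 of 15909 genes were called. It was 2 with all 12 mice in 1 fit, for which the share over all genes was not taken. The median of HFD versus LFD stayed between -0.2108 and -0.3648. Genes above 0 numbered 1 with library totals and 0 without the factors and older paralogs in HFD versus LFD mice, and 1 with the chromaffin covariate and 0 without the factors in IPE versus LFD mice. The count of genes without overlap was 75 (HFD versus LFD), 4 (IPE versus HFD) and 20 (IPE versus LFD) with library totals, against 13.6%, 1.21% and 6.98% of all genes in either direction, and 13 in IPE versus LFD mice with no filter on low counts, against 5.24%. Leaving out 1 mouse, it ranged from 10 to 62 in HFD versus LFD, from 0 to 1 in IPE versus HFD and from 7 to 60 in IPE versus LFD mice. Over all genes the share ranged from 15.4% to 23.8%, from 1.89% to 5.25% and from 9.24% to 14.8%. In IPE versus LFD the count was 60 without LFD mouse 5 and 37 without IPE mouse 4, against 13% and 11.2% of all genes, and in HFD versus LFD 62 without LFD mouse 5 and 17 without HFD mouse 4, against 19.1% and 15.4%. Genes higher ranged from 21 to 76 in IPE versus HFD and from 1 to 3 in IPE versus LFD mice.

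The direction of single genes reversed in these cases. With library totals the log2 fold change of *Rps19bp1* in HFD versus LFD mice was -0.037, and in IPE versus HFD mice that of *Rpl7l1* was 0.003, of *Rplp0* 0.0086 and of *Rpl10* 0.0099. With the chromaffin covariate *Rpl7l1* was at 0.0337 and *Rplp0* at 0.0206 in IPE versus HFD mice, and *Rpl7l1* at -0.071 in IPE versus LFD mice. Leaving out 1 mouse, *Rplp0* ranged from -0.0976 to 0.0113 (HFD versus LFD) and from -0.1177 to 0.004 (IPE versus HFD), and *Rpl7l1* from -0.189 to 0.0085 (IPE versus HFD) and from -0.0671 to 0.121 (IPE versus LFD). The cause was not tested.

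With the replicate number as a block, the median of IPE versus HFD mice was 0.0227, 66 genes were higher and 0 were called, so that the block changed no call. *Rps27rt* had 92 to 228 counts per mouse, fewer than the other genes tested.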
